A study of Drosophila melanogaster with 18 samples.

Results

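The mRNA levels of 10 Imd pathway genes (10 of the 15602 genes in the deposited RNA-seq table) were compared in *Drosophila* S2 cells after heat shock (HS) and without it (NHS). They were *PGRP-LC*, *PGRP-LE*, *PGRP-LB*, *PGRP-SD*, *imd*, *Dredd*, *Tak1*, *key*, *Rel* and *pirk*, matched by their FlyBase symbols, and all 10 were found. The genes were chosen by pathway membership with earlier results of this same HS against NHS contrast in view. The levels and differences of these 10 genes between the conditions are therefore given as a description, with no p-value. Where a fit over all genes is counted, their calls are given only beside the share called among all genes. The 2 conditions were S2 cells after 30 min of HS and S2 cells before HS, each without RNAi treatment and each with 2 biological replicates, 4 libraries in all. HS was started with an equal volume of hot serum-free medium (48°C) and continued at 37°C, so that heat and added medium cannot be told apart if NHS cultures received no such medium. The deposited value is FPKM, the sequenced fragments of an mRNA per length of transcript and per size of the library. FPKM measures the level of an mRNA relative to the other mRNAs of its library and not the amount per cell. The summed FPKM of all genes was 923996 and 926922 in the HS libraries and 831628 and 837852 in the NHS libraries. The values are therefore not shares of a common total.

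The Imd pathway is an innate immune pathway of flies that responds to peptidoglycan, a cell wall polymer, of mainly Gram-negative bacteria. Recognition proteins of the PGRP family bind peptidoglycan and recruit the adaptor Imd, a caspase and a kinase cascade then act on the NF-κB protein Relish, and Relish turns on genes for antimicrobial peptides. Relish also turns on inhibitors of the pathway, among them Pirk, so that the response limits itself. S2 cells come from fly embryos, resemble haemocytes (the blood cells of the fly) and are widely used to study this pathway.

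The S2 cells held mRNA of most haemocyte markers in both conditions. Of 10 haemocyte markers, 9 reached a mean of 1 FPKM over the 4 libraries, the minimum used for testing, and none passed the test between conditions by limma (0 also at an unadjusted p under 0.05). Their summed level was 304 and 375 FPKM in the HS libraries and 298 and 390 FPKM in the NHS libraries, while *NimC1*, which encodes a phagocytic receptor of haemocytes, was at or near 0 in all 4. All 8 markers of fat body and gut lay under 1 FPKM, with sums of 1.14 and 0.943 FPKM in the HS libraries and 0.103 and 0.101 FPKM in the NHS libraries. The table holds no read counts. The smallest values give an estimate of the divisor that scales each library to FPKM. It was 60.1% and 69.3% of that of NHS replicate 1 in the HS libraries, and 77.0% in NHS replicate 2. Whether this divisor followed the number of reads is not known here. In bulk RNA, fewer cells of a kind and less RNA per cell cannot be told apart.

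All 10 genes reached the minimum of 1 FPKM, *PGRP-LB* and *PGRP-LE* by a small margin. In NHS cells their levels ran over a wide range, with *Rel* and *pirk* far above the rest. In HS cells they lay within the range of *PGRP-SD* and *key* or below it, and the spread of levels was narrower. The other 8 mRNAs lay between 73.4% and 120% of their NHS mean.

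**Figure D1:**
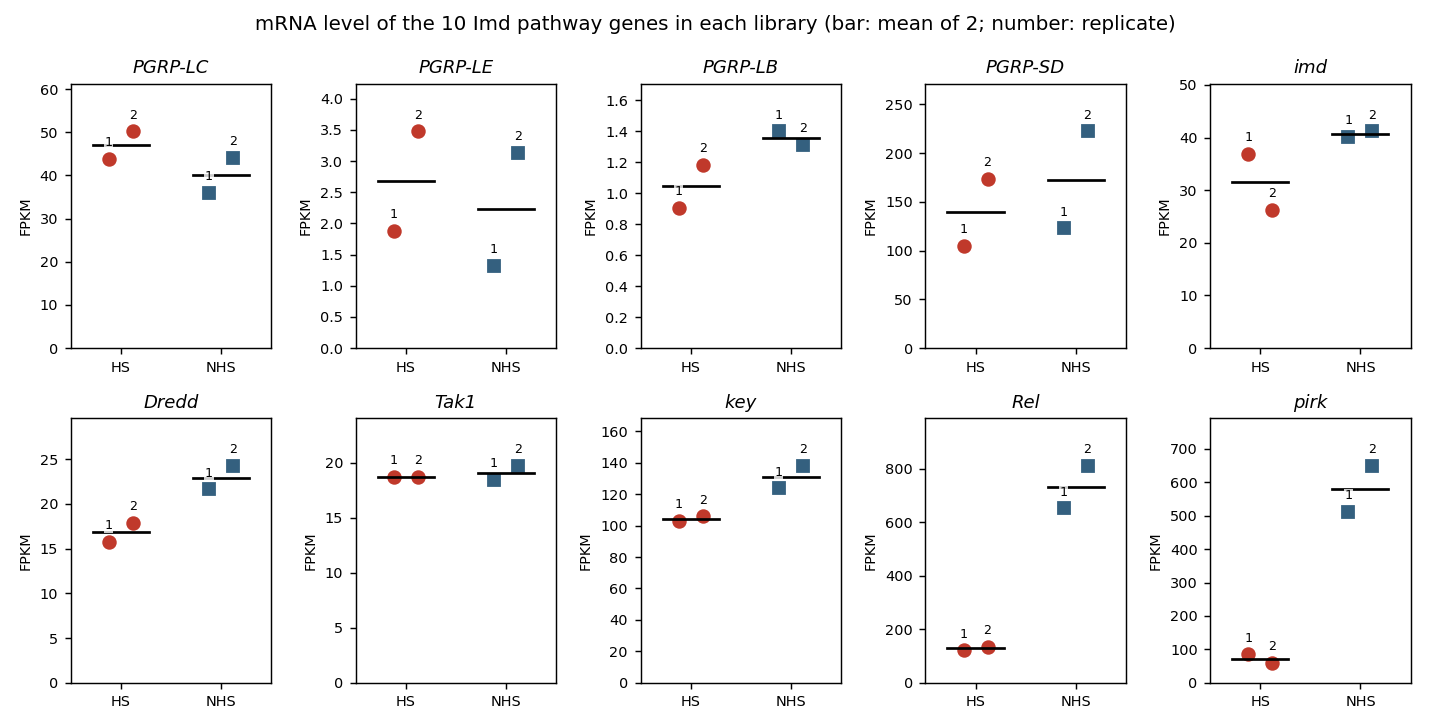
FPKM of each of the 10 Imd pathway genes in the 2 HS libraries (circles) and the 2 NHS libraries (squares), numbered by replicate, with a bar at the mean. *Rel* and *pirk* stand apart, with HS libraries between 60.7 and 135 FPKM and NHS libraries between 511 and 810 FPKM, while the 2 conditions overlap for *PGRP-LC*, *PGRP-LE*, *PGRP-SD* and *Tak1*.

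The receptors of the pathway lay at slightly higher means in HS cells, within the spread of the libraries. *PGRP-LC* encodes the membrane receptor that senses peptidoglycan outside the cell. Its mRNA stood at 43.8 and 50.2 FPKM in the HS libraries, against 35.9 and 44.0 FPKM in the NHS libraries. The lower HS library lay just under the higher NHS library, so the groups overlapped. The means were 47.0 ± 4.54 FPKM in HS cells and 40.0 ± 5.73 FPKM in NHS cells (SD, n = 2 each). On the log2(FPKM + 1) scale, used for every fold change here, this is a log2 fold change of 0.23 with a standard error of 0.15. This sign did not hold under every scaling, since the value was -0.01 with libraries rescaled to ribosomal protein genes. Relative to the median of all genes it was 0.25 in the deposited values and 0.24 after that rescaling.

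*PGRP-LE* encodes a recognition protein that senses peptidoglycan fragments inside the cell. It was scarce, at 1.88 and 3.48 FPKM in the HS libraries, against 1.32 and 3.13 FPKM in the NHS libraries. Replicate 2 was the higher library in both conditions, and the difference between replicates was larger than that between conditions. The log2 fold change was 0.22 (standard error 0.39). It lay between -0.20 and 0.63 when 1 library was left out, below 0 without HS replicate 2 or NHS replicate 1, and at -0.06 after quantile normalization. Between same-numbered libraries the log2 change was 0.31 and 0.12. At such levels a library may rest on few fragments, whose number is not known here.

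The remaining recognition genes had lower HS means, by less than 1 on the log2 scale. *PGRP-LB* encodes an amidase that cuts peptidoglycan and thereby dampens the pathway. It was the scarcest gene of the set, with 0.905 and 1.18 FPKM in the HS libraries, against 1.40 and 1.31 FPKM in the NHS libraries. Both HS libraries lay below both NHS libraries, with a log2 fold change of -0.21 (standard error 0.22). This scale understates the change of low mRNAs, and the HS mean was 77.1% of the NHS mean in FPKM.

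*PGRP-SD* encodes a secreted recognition protein that helps to bring peptidoglycan to receptors. It stood at 105 and 174 FPKM in the HS libraries, against 123 and 222 FPKM in the NHS libraries. As with *PGRP-LE*, replicate 2 was the higher library in both conditions and the groups overlapped. The log2 fold change was -0.29 (standard error 0.39), and it changed sign to 0.07 without HS replicate 1 and to 0.14 without NHS replicate 2. Between same-numbered libraries the log2 change was -0.23 and -0.35, though whether a number stands for a common batch is unknown. The haemocyte marker *Hml*, which encodes a large secreted clotting protein, had the same order of replicates, with 4.45 and 20.7 FPKM in the HS libraries, against 5.69 and 22.5 FPKM in the NHS libraries. The markers did not all share this order. *He* had the opposite order, with 5.36 and 1.21 FPKM in the HS libraries, against 5.97 and 1.09 FPKM in the NHS libraries. *srp* was also lower in replicate 2 in both conditions. *Hml*, *He* and *srp* were named after their values were seen, and their part in the spread of *PGRP-SD* and *PGRP-LE* was not tested. *PGRP-SD* lies inside *CG32373* on the same strand and shares no exon sequence with it. *CG32373* had 1.51 and 3.69 FPKM in the HS libraries and 1.52 and 4.40 FPKM in the NHS libraries.

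The 4 genes of the signal chain lay between 73.4% and 98.2% of their NHS means. *imd* encodes the adaptor with a death domain that gives the pathway its name. Its mRNA stood at 37.0 and 26.3 FPKM in the HS libraries, against 40.2 and 41.2 FPKM in the NHS libraries. Both HS libraries were lower than both NHS libraries, and HS replicate 2 was the lowest of the 4. The means were 31.6 ± 7.54 FPKM in HS cells and 40.7 ± 0.702 FPKM in NHS cells (SD, n = 2 each), with a log2 fold change of -0.37 (standard error 0.18). Without HS replicate 2 the log2 fold change was -0.14.

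*Dredd* encodes the caspase that cleaves Imd and Relish. Its mRNA stood at 15.7 and 17.9 FPKM in the HS libraries, against 21.6 and 24.2 FPKM in the NHS libraries. The groups did not overlap, and the difference between conditions was larger than that between replicates. The HS mean was 73.4% of the NHS mean, with a log2 fold change of -0.43 (standard error 0.12). In the same-numbered libraries the log2 change was -0.44 and -0.42.

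*Tak1* encodes the kinase that passes the signal to the IκB kinase complex and to the JNK branch. Its mRNA stood at 18.7 FPKM in both HS libraries, against 18.4 and 19.7 FPKM in the NHS libraries. The HS values lay between the NHS values, with a log2 fold change of -0.02 (standard error 0.10). The sign turned to 0.01 after quantile normalization and to 0.02 without NHS replicate 2.

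*key* encodes Kenny, the regulatory subunit of the IκB kinase complex that acts on Relish. Its mRNA stood at 103 and 106 FPKM in the HS libraries, against 124 and 138 FPKM in the NHS libraries. Both HS libraries were lower than both NHS libraries. The HS mean was 79.8% of the NHS mean, with a log2 fold change of -0.32 (standard error 0.10).

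*Rel* encodes Relish, the NF-κB protein at the end of the chain. It was the most abundant mRNA of the set in NHS cells and ranked 139 among the 7815 tested genes there. Its level was 122 and 135 FPKM in the HS libraries, against 652 and 810 FPKM in the NHS libraries. The groups lay far apart, and each HS library was between 15.0% and 20.8% of an NHS library. The means were 129 ± 9.89 FPKM in HS cells and 731 ± 112 FPKM in NHS cells (SD, n = 2 each), with a log2 fold change of -2.49 (standard error 0.14). Only 37 of the tested genes had a lower log2 fold change. There were 13 alternative settings, which changed the pseudocount, filter, scaling or variance model, added the replicate number or left out 1 library. Changing the filter or variance model or adding the replicate number cannot move the log2 fold change. With the pseudocount, scaling or libraries changed, that of *Rel* lay between -2.74 and -2.34. *Rel* lies inside *Nmdmc* on the same strand, with no shared exon sequence in the annotation used here. *Nmdmc* stood at 86.7 and 71.1 FPKM in the HS libraries, against 79.3 and 83.1 FPKM in the NHS libraries, which overlap. A part of the host gene in the difference seen for *Rel* was not tested.

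*pirk* encodes the feedback inhibitor that binds the receptors and Imd and removes the receptor from the membrane. Its level was 84.9 and 60.7 FPKM in the HS libraries, against 511 and 648 FPKM in the NHS libraries. The groups lay far apart, and each HS library was between 9.36% and 16.6% of an NHS library. The means were 72.8 ± 17.1 FPKM in HS cells and 580 ± 97.3 FPKM in NHS cells (SD, n = 2 each), with a log2 fold change of -2.99 (standard error 0.22). This was the largest difference of the set, and 19 of the tested genes had a lower log2 fold change. Over the same 13 settings it lay between -3.23 and -2.75, a range set only by the pseudocount, the scaling and the libraries left out. In the same-numbered libraries the log2 change was -2.58 and -3.40, a wider spread than the -2.41 and -2.57 of *Rel*.

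**Figure D2:**
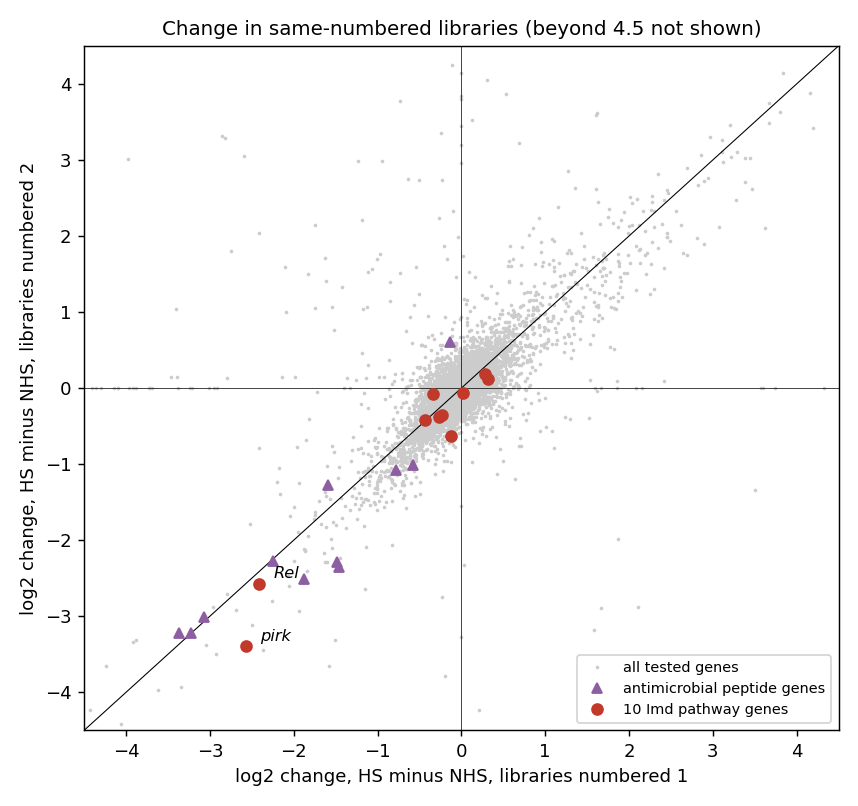
Log2 change, HS minus NHS, on the log2(FPKM + 1) scale, between the libraries numbered 1 (horizontal axis) and the libraries numbered 2 (vertical axis). Grey points are all tested genes, triangles are antimicrobial peptide genes, circles are the 10 Imd pathway genes and the diagonal marks equal change. *Rel* (-2.41 and -2.57) and *pirk* (-2.58 and -3.40) lie at the lower left beside several antimicrobial peptide genes such as *Mtk* (-3.37 and -3.22), while other peptide genes and the other 8 circles lie nearer the centre.

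The order of the 10 levels differed between the conditions. In HS cells the means ran from *PGRP-SD* (139 ± 48.8 FPKM) over *Rel*, *key* (104 ± 1.93 FPKM), *pirk*, *PGRP-LC*, *imd*, *Tak1* (18.7 ± 0.0264 FPKM), *Dredd* (16.8 ± 1.53 FPKM) and *PGRP-LE* to *PGRP-LB*. The libraries of *PGRP-SD* overlapped those of *Rel* and of *key*, and no other neighbours in this order overlapped. In NHS cells the order was *Rel*, *pirk*, *PGRP-SD* (172 ± 70.4 FPKM), *key* (131 ± 9.99 FPKM), *imd*, *PGRP-LC*, *Dredd* (22.9 ± 1.83 FPKM), *Tak1* (19.0 ± 0.901 FPKM), *PGRP-LE* and *PGRP-LB*. There the libraries of *PGRP-SD* and *key*, of *imd* and *PGRP-LC*, and of *PGRP-LE* and *PGRP-LB* overlapped. The NHS libraries of *Rel* and *pirk* did not overlap, by a narrow margin of 652 against 648 FPKM.

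Together the 10 mRNAs summed to 532 and 593 FPKM in the HS libraries, against 1528 and 1952 FPKM in the NHS libraries. *Rel* and *pirk* made up 38.8% and 33.1% of that sum in the HS libraries, against 76.1% and 74.7% in the NHS libraries. The other 8 summed to 326 and 397 FPKM in the HS libraries and 365 and 494 FPKM in the NHS libraries, which overlap. The balance of transcription factor to kinase subunit thus differed, with a *Rel* to *key* ratio of 1.18 and 1.28 in the HS libraries, against 5.27 and 5.88 in the NHS libraries. The *pirk* to *PGRP-LC* ratio, inhibitor to receptor, was 1.94 and 1.21 in the HS libraries, against 14.2 and 14.7 in the NHS libraries. *pirk* and *Rel* kept a more similar ratio, at 0.698 and 0.448 in the HS libraries and 0.783 and 0.800 in the NHS libraries.

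Across all 7815 tested genes, limma on the log2(FPKM + 1) scale called 122 genes lower in HS cells (1.56%) and 137 higher (1.75%) at an adjusted p under 0.05. Among the 10 genes, 2 were called lower (*Rel* and *pirk*), 0 were called higher and 8 were not called. Both HS libraries lay below both NHS libraries for 6 of the 10, where this holds for 25.6% of all tested genes, and above both for 0 of the 10, where it holds for 20.5%. Because the genes were selected with this contrast known, these counts describe the choice and no more is read from them. The median log2 fold change was -0.31 over the 10 and -0.25 over the 8 other than *Rel* and *pirk*, against -0.02 over all tested genes, whose quartiles were -0.17 and 0.13. The 2 calls were made with all 4 libraries. When 1 library was left out, the log2 fold change lay between -2.65 and -2.34 for *Rel* and between -3.22 and -2.75 for *pirk*.

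The wider pathway was read from a list of 28 further genes, of which 22 were tested and 0 were called in either direction by limma (an unadjusted p under 0.05 was reached by 2 that were higher and 8 that were lower). The share of all tested genes under that unadjusted cut-off was not computed, so no more is read from these 2 counts. The median over the 22 was -0.15. Both HS libraries lay below both NHS libraries in 10 of the 22, above in 5 and overlapped in 7, beside 25.6% below and 20.5% above among all tested genes.

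**Figure D3:**
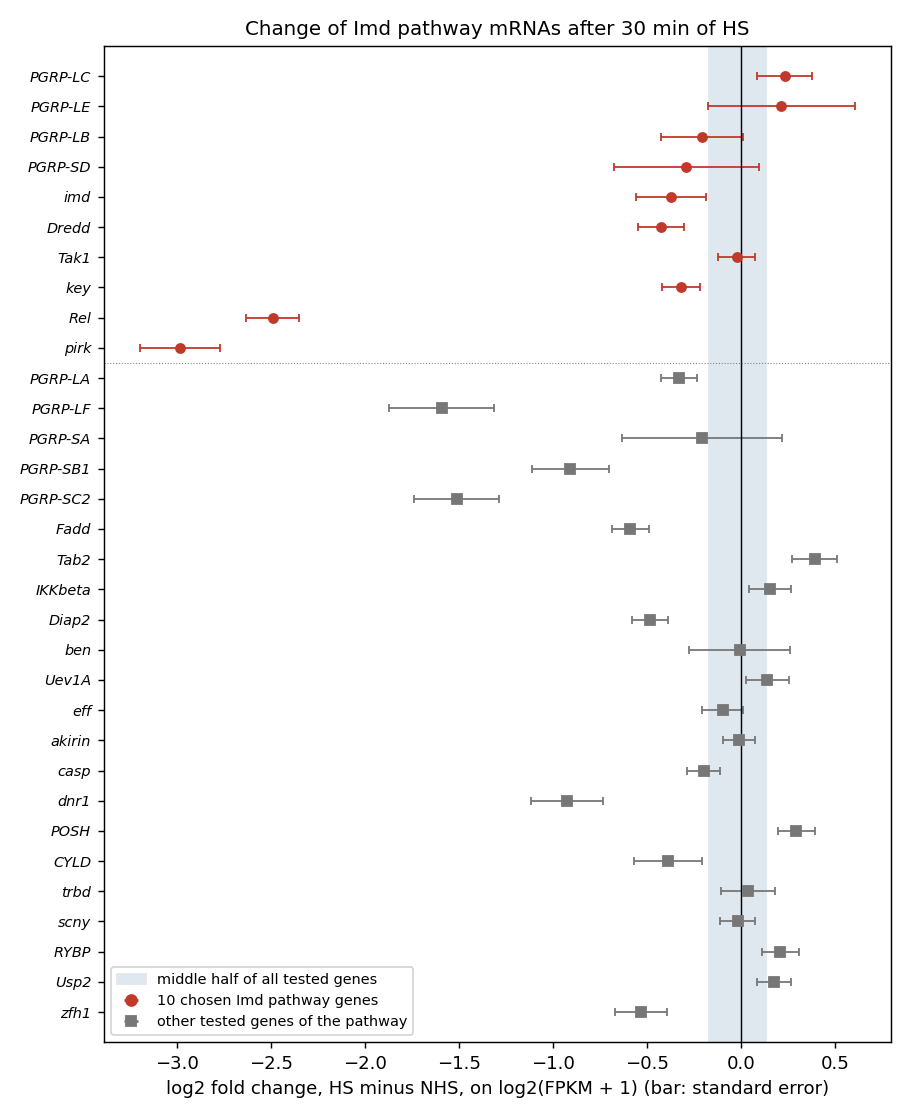
Log2 fold change, HS minus NHS, on the log2(FPKM + 1) scale, of the 10 chosen Imd pathway genes (circles) and the 22 other tested genes of the pathway (squares), with bars for the standard error. The shaded band spans the quartiles of all tested genes, -0.17 and 0.13, and *pirk* (-2.99) and *Rel* (-2.49) lie to the left of every other gene shown. This order depends on the pseudocount: at 0.1, *PGRP-SC2* (-2.94) lay below *Rel* (-2.50).

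Among the other recognition proteins, 5 of 9 were tested and all 5 had log2 fold changes below 0. The largest difference on the log2(FPKM + 1) scale was that of *PGRP-LF*, which encodes a membrane protein that inhibits signalling by PGRP-LC. It stood at 11.8 and 19.0 FPKM in the HS libraries, against 40.6 and 55.1 FPKM in the NHS libraries. Its log2 fold change of -1.59 (standard error 0.28) missed the threshold (adjusted p = 0.073 by limma). The adjusted p lay between 0.00471 and 0.356 over the alternatives, and it passed in 3 of 13. *PGRP-SC2*, an amidase gene named after its values were seen, was scarce, at 0.265 and 0.230 FPKM in the HS libraries, against 2.87 and 2.28 FPKM in the NHS libraries. In FPKM its HS mean was 9.62% of the NHS mean, against 32.2% for *PGRP-LF*, while its log2 fold change was -1.51 (standard error 0.23, adjusted p = 0.0532 by limma). The adjusted p lay between 0.0291 and 0.174 over the alternatives, and it passed in 6 of 12. *PGRP-LF* lies next to *PGRP-LC* on the same strand of chromosome arm 3L. The *PGRP-LC* to *PGRP-LF* ratio was 3.72 and 2.64 in the HS libraries, against 0.886 and 0.799 in the NHS libraries, so the receptor was the more abundant of the pair only in HS cells. *PGRP-SA*, a secreted recognition protein of the Toll pathway and the most abundant of these, had 37.1 and 67.0 FPKM in the HS libraries, against 42.0 and 79.3 FPKM in the NHS libraries. Its groups overlapped (log2 fold change -0.21, standard error 0.42), and replicate 2 was again the higher in both conditions.

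Of the 8 other genes of the signal chain, all were tested, with a median of -0.01. *Fadd*, the adaptor that links Imd to Dredd, had the largest difference. It stood at 27.8 and 28.6 FPKM in the HS libraries, against 41.2 and 44.8 FPKM in the NHS libraries (log2 fold change -0.59, standard error 0.10, adjusted p = 0.066 by limma). It passed in 3 of 13 alternatives, with an adjusted p between 0.0187 and 0.398. *Fadd* and *Dredd* both had HS libraries below all NHS libraries, which holds for 25.6% of all tested genes. Of the 8 other signal chain genes, 2 lay below in this way, 2 lay above and 4 overlapped. Among all tested genes 20.5% lay above. *eff*, which encodes a ubiquitin-conjugating enzyme and was the most abundant, had 768 and 696 FPKM in the HS libraries, against 834 and 735 FPKM in the NHS libraries, which overlap.

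Among 11 other inhibitors of the pathway, 9 were tested and their median was -0.02. *dnr1*, which encodes an inhibitor of Dredd, had the largest difference. It was low, at 1.84 and 1.48 FPKM in the HS libraries and 4.54 and 3.60 FPKM in the NHS libraries (log2 fold change -0.93, standard error 0.19, adjusted p = 0.103 by limma). It passed in 1 of 12 alternatives (adjusted p between 0.0428 and 0.339). *zfh1*, a zinc finger transcription factor and the most abundant of these, stood at 55.3 and 65.6 FPKM in the HS libraries, against 81.6 and 93.9 FPKM in the NHS libraries (log2 fold change -0.53, standard error 0.14, adjusted p = 0.152 by limma). It passed in 2 of 13 (adjusted p between 0.0183 and 0.566). On this scale none of the 9 had a difference as large as that of *pirk*.

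The antimicrobial peptide genes, the classical targets of NF-κB proteins in flies, were read from a list of 14 genes. Of these, 13 were matched in the deposited values and analysed, and *Drs* was not matched. The list was chosen with earlier results of these data known. Of 11 tested genes, 6 fell and 0 rose by limma, beside 1.56% lower and 1.75% higher among all tested genes, with a median log2 fold change of -1.91. The 5 not called were named after their values were seen. They were *AttD* (log2 fold change -3.04, adjusted p = 0.0817 by limma), *CecA2* (-2.19, 0.0740), *DptB* (-0.93, 0.138), *Dro* (-0.79, 0.344) and *DptA* (0.24, 0.768). *DptA* was scarce, at 0.954 and 1.66 FPKM in the HS libraries, against 1.15 and 0.745 FPKM in the NHS libraries, which overlap. *Mtk*, which encodes metchnikowin, stood at 41.1 and 60.5 FPKM in the HS libraries, against 435 and 572 FPKM in the NHS libraries (log2 fold change -3.30, standard error 0.24, adjusted p = 0.0101). Among the cecropins, *CecA1* was the most abundant, at 225 and 302 FPKM in the HS libraries, against 1069 and 1460 FPKM in the NHS libraries (log2 fold change -2.26, adjusted p = 0.0220). *CecB* fell by 3.22 on the log2 scale (adjusted p = 0.00879) and *CecC* fell by 1.43 (adjusted p = 0.0163).

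The attacin genes *AttA* and *AttB* are near-identical copies, so that the division of fragments between them is uncertain. *AttA* fell by 1.89 (adjusted p = 0.0326) and *AttB* fell by 1.91 (adjusted p = 0.0399) on the log2 scale. *AttC*, named after its values were seen, was listed at 0 in both HS libraries, against 0.807 and 1.15 FPKM in the 2 NHS libraries, while *Def* was listed at 0 in all 4. All 6 calls were lost when any 1 library was left out, with adjusted p between 0.0666 and 0.258, and each kept its sign. The call of *AttB* was also lost after quantile normalization (adjusted p = 0.0536, with a range of 0.0204 to 0.258 over its alternatives).

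**Figure D4:**
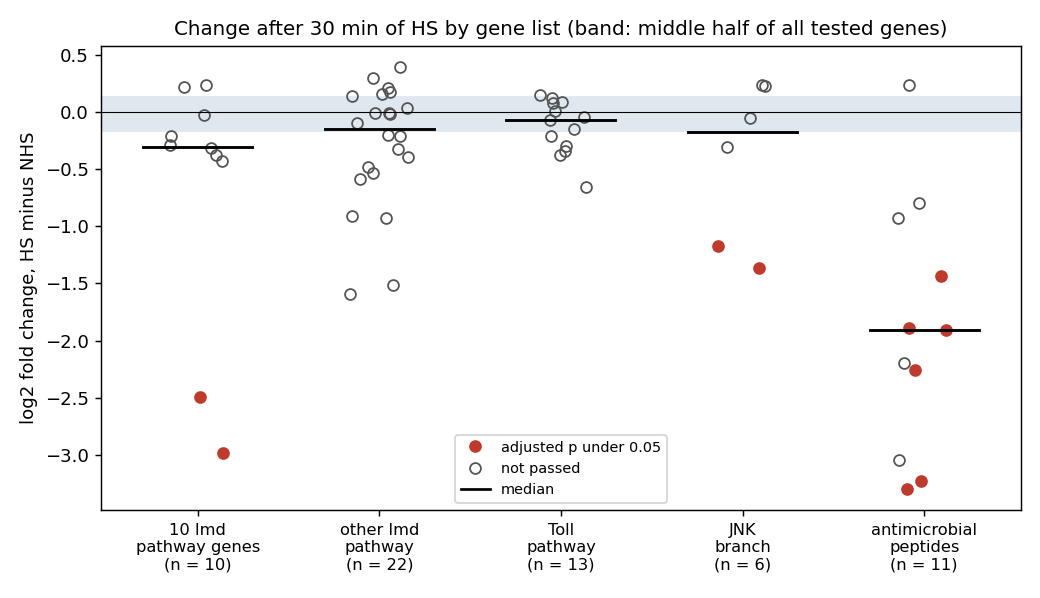
Log2 fold change, HS minus NHS, on the log2(FPKM + 1) scale, of the tested genes of 5 lists, with a bar at each median. Filled points passed an adjusted p under 0.05 by limma, open points did not, and the shaded band spans the quartiles of all tested genes. The antimicrobial peptide genes have the lowest median (-1.91), and 0 genes passed in the other Imd pathway and Toll lists.

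The JNK branch leaves the Imd pathway at Tak1. Of 6 tested genes, 2 were called lower and 0 higher, on the same background shares, with a median of -0.18. *puc*, which encodes the phosphatase that switches off JNK, stood at 108 and 96.5 FPKM in the HS libraries, against 268 and 259 FPKM in the NHS libraries (log2 fold change -1.36, standard error 0.10, adjusted p = 0.0101 by limma). *Jra*, which encodes the fly Jun protein, stood at 87.5 and 79.7 FPKM in the HS libraries, against 180 and 200 FPKM in the NHS libraries (log2 fold change -1.18, standard error 0.11, adjusted p = 0.0189 by limma). Both calls were lost when any 1 library was left out, with adjusted p between 0.0778 and 0.157. In the Toll pathway, the other NF-κB pathway of flies, 0 of 13 tested genes were called by limma (an unadjusted p under 0.05 was reached by 0 that were higher and 3 that were lower), with a median of -0.07. Here too the share of all tested genes under the unadjusted cut-off was not computed, and no more is read from these counts.

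The 3 tested genes whose 4 library values, centred on each gene's mean on the log2(FPKM + 1) scale, lay nearest to those of *pirk* were *CG5835*, *Mmp1* and *CG15673*, at Euclidean distances of 0.212, 0.357 and 0.387. *Mmp1*, which encodes a matrix metalloproteinase, stood at 83.6 and 43.3 FPKM in the HS libraries, against 434 and 483 FPKM in the NHS libraries. *CG5835* stood at 12.9 and 9.31 FPKM in the HS libraries, against 77.1 and 88.3 FPKM in the NHS libraries. *CG15673* was scarce, at 0.0977 and 0.0848 FPKM in the HS libraries, against 6.05 and 7.17 FPKM in the NHS libraries. The pseudocount caps the change of so low an mRNA: the HS mean of *CG15673* was 1.38% of its NHS mean in FPKM, against 13.4% for *CG5835*, 13.8% for *Mmp1* and 12.6% for *pirk*. With 4 libraries in 2 conditions, the distance is a description only.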

How the data were processed

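mRNA levels were measured by RNA-seq of poly(A) RNA with a strand-specific kit. The authors removed adapters, discarded reads under 20 nt, aligned to dm3 with TopHat2 as first-strand libraries, and deposited FPKM per gene and library from Cuffnorm, without versions in the sources used here. The scaling setting of Cuffnorm is not given there. As FPKM are relative, they do not show a loss that all mRNAs share. Of the 18 samples of the series, the 2 RNA-seq samples were analysed here.

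Conditions came from the labels and replicate numbers from the column names. Symbols, neighbours and overlaps came from an annotation of another build (BDGP6), so no coordinates are given. The 7815 genes averaging 1 FPKM or more were tested on log2(FPKM + 1) by limma 3.58.1 under R 4.3.3 (a linear model of the condition alone, moderated by eBayes with a trend, Benjamini-Hochberg over all tested genes, adjusted p under 0.05). FPKM cannot enter a count test. The code was tested on simulated data. With 2 libraries per condition, each p-value sets a difference against a variance that is moderated toward the trend over all tested genes. That variance comes from these 4 libraries alone.

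The 10 genes and the lists (other Imd pathway, Toll, antimicrobial peptides, JNK, haemocyte, fat body and gut) were chosen with earlier results of these data known, and their genes were written from knowledge of the pathway. Named are all 10 genes, every called gene of the pathway lists, the most abundant gene and the largest change of each role in the wider Imd list, and the 3 genes nearest to the largest change. Others are marked. Alternatives were pseudocounts of 0.1 and 5, no filter, a mean of at least 5 FPKM, rescaling to equal totals or to 80 ribosomal protein genes, quantile normalization, robust moderation, the replicate number as a term, an adjusted p under 0.001 and leaving out each library. Python 3.11.15 with numpy 2.4.6, pandas 2.3.3 and matplotlib 3.10.9 was used otherwise.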

Additional observations from a re-analysis of the deposited data

How the results depend on the processing

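The cause of the shifts given here was not tested. Over all genes, 259 of 7815 were called (52.9% of them higher). Without a filter 396 of 11738 tested genes were called (70.7% higher), and at a mean of at least 5 FPKM 149 of 6625 (40.3% higher). The other settings tested 7815 genes. They called 384 at equal totals (34.4% higher), 185 after quantile normalization, 598 with ribosomal scaling (23.7% higher) and 368 with robust moderation. The replicate block called 916 (36.5% higher), and 10 were called at an adjusted p under 0.001 (10 higher and 0 lower). Leaving out 1 library gave 26 to 64, with 33 higher and 6 lower without HS replicate 1 (84.6% higher), 36 and 6 without HS replicate 2 (85.7%), 16 and 10 without NHS replicate 1 (61.5%), and 30 and 34 without NHS replicate 2 (46.9%). The median of all genes was -0.16 at equal totals and -0.25 with ribosomal scaling.

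Of the 10 Imd pathway genes, 2 were called, where 259 of all 7815 tested genes were. Ribosomal scaling called 4 (*Dredd* and *key* added), where 598 of all tested genes were called. The replicate block called 3 (*Dredd* added), where 916 of all tested genes were called. At an adjusted p under 0.001, 0 were called, where 10 of all tested genes were. As the 10 genes were chosen with this contrast known, no more is read from these counts. Their median of -0.31 was -0.45 at equal totals and -0.55 with ribosomal scaling, and -0.39 to -0.20 when 1 library was left out. *PGRP-LB* and *PGRP-LE* were not tested at 5 FPKM.

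Of the other Imd pathway genes 0 were called, against 1 without a filter, 4 at equal totals, 1 after quantile normalization, 5 with ribosomal scaling, 1 with robust moderation, 7 with the replicate block and 0 when 1 library was left out, all of them lower. The single call was *PGRP-SC2* in each case. Ribosomal scaling and the replicate block also called the most genes among all tested, 598 and 916 of 7815.

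The replicate numbers come from the column names, and whether a number stands for a common batch or day is unknown here. Libraries with the same number deviated from their group means with a correlation of 0.22 over 7815 genes. Without 1 library, the lone library of its condition is assumed to vary like the others. FPKM give no read depth, so low mRNAs such as *PGRP-LE* carry an error that was not measured.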
